A study of Homo sapiens with 2 samples.

Results

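Genes of homologous recombination, crosslink repair and mismatch repair were followed through sections of 2 breast cancer xenografts, 7 in all: RAD51C, XRCC2, BRCA1, BRCA2, FANCD2, FANCI and MSH6. They were taken by symbol from the gene list of the count matrices, where all 7 of 7 symbols were found among 36601 human features. No member is a gene of the hypoxia score or of the proliferation lists used below. The question put to the data was whether their levels change along the local level of hypoxia, and whether they do so more or less than proliferation genes.

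The tumors were grown from MDA-MB-231, a long-established human cell line of triple-negative breast cancer, and both belong to 1 untreated group (n = 2). They are called tumor 1 and tumor 2 here, in the order of their label numbers. The cells carry a fate-mapping reporter whose fluorescence switches permanently once a cell has met low oxygen, and the study asks whether such cells keep hypoxia programs after reaching oxygenated tissue. Tumors were taken 18 days after implantation, and frozen sections of 10 µm were placed on Visium slides, where each barcoded spot collects RNA from a small patch that can hold several cells. The fluorescence images were not used here, so the levels below are ordered by a transcript score for hypoxia and not by the fate of the cells. The labels name neither the implantation site nor the host, and do not say whether the tumors came from separate mice. The spread between the tumors may therefore be smaller than that between animals.

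Homologous recombination repairs a broken chromosome by copying the intact sister chromatid, which exists only after replication, so cells use it mainly in S and G2 phase. Mismatch repair follows the replication fork and corrects bases that the polymerase paired wrongly. Many genes of both routes are transcribed with the cell cycle, and lower levels of several of them have been described in cancer cells kept in low oxygen, which is why proliferation genes are the natural comparison.

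Promoters are shown first because they bear on that comparison. E2F factors drive S phase genes, and a cell cycle element called CHR marks many G2 and M phase genes. ACGTG is a core that hypoxia-inducible factors bind, and no other form of that core was searched. RefSeq promoter sequences on GRCh38.p14 were matched for 6 of 7 members, and the 250 bases before each start were searched on both strands. A gene counted where any of its starts had a match, so genes with more starts had more sequence searched. MSH6 had 4 starts, BRCA1 and RAD51C 2 each, and BRCA2, FANCD2 and XRCC2 1 each. One of the E2F cores TTGGCGC and TTCCCGC lay before a start of 2 of 6 members (BRCA1 and MSH6), against 9.4% of 27305 genes and 21 of 32 S phase genes. The CHR letters TTTGAA were found in 0 of 6 members, 16.1% of all genes and 22 of 40 G2 and M phase genes. ACGTG was found in 3 of 6 members (BRCA2, FANCD2 and MSH6) and 21.7% of all genes, and CCAAT in 2 of 6 (BRCA1 and MSH6) and 37.0% of all genes. The last 100 bases before a start are printed for 4 members, chosen to show an E2F core, an ACGTG core on both strands, an ACGTG core on 1 strand, and a member with neither. Capitals mark the E2F core or the ACGTG core on either strand, and in BRCA2 the 2 ACGTG matches overlap in a palindrome.
BRCA1, chr17:43125365-43125464, minus strand: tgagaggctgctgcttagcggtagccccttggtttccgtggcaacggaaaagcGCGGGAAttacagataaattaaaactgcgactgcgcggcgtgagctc
BRCA2, chr13:32315408-32315507, plus strand: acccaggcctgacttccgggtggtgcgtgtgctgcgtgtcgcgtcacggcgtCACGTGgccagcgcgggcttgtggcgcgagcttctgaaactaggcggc
FANCD2, chr3:10026337-10026436, plus strand: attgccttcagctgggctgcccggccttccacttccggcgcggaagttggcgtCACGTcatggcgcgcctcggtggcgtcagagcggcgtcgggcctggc
XRCC2, chr7:152676142-152676241, minus strand: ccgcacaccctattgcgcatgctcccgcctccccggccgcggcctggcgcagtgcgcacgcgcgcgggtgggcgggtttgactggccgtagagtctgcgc
These are matches of letters in a window and not measured binding sites. The BRCA1 and BRCA2 stretches lie inside the annotated gene spans, before a later start, and so do the E2F matches of MSH6.

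Unique molecular identifiers (UMIs), which count captured transcript molecules, numbered 58661164 over 2536 spots in tumor 1 and 39735490 over 2841 spots in tumor 2. The defining transcripts of the line were present, with VIM at 5639 and 5548 counts per 1000000 UMIs (CPM), while of 6 epithelial and receptor genes listed as absent from it ESR1, PGR and CDH1 lay at 0.126 CPM or less and KRT20 had 0 UMIs, in both tumors. The other two were detected, EPCAM at 19.7 and 17.8 CPM and ERBB3 at 4.35 and 4.76 in tumor 1 and tumor 2. A low-UMI area, set apart by an Otsu threshold on smoothed UMIs per spot (11400 in tumor 1 and 5195 in tumor 2), covered 22.3% and 30.1% of spots, and how it falls between zones is given beside the results. The tumors share 1627 spot barcodes, which name array positions and not cells. Mouse transcripts read as human genes were not separable, and in these spots fewer expressing cells and less RNA per cell cannot be told apart.

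Each tumor was cut into quartiles of a hypoxia score, for which 28 hypoxia genes were each z-scored on a log2 scale (1 plus UMIs per 10000), averaged and smoothed over adjacent spots. All 7 repair genes stood lower in the top quartile of the score than in the bottom quartile, in both tumors. Over the 14 series of a gene and a tumor, the lowest level was in the top quartile in 14, and the level went down at each of the 3 steps in 11. The share of all genes with such a pattern was not computed. Scaled by library size alone, as CPM is, all genes had a median log2 fold change of -0.12 between top and bottom quartile. Genes in general were thus slightly lower on this scale. Levels are CPM, that is UMIs of the gene per 1000000 UMIs of the zone, with exact Poisson 95% intervals, which cover counting error only, and no test was made on the quartile series.

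RAD51C and XRCC2 act in homologous recombination on the single-stranded DNA of resected ends. RAD51C (ENSG00000108384, chromosome 17:58692573-58735611, GRCh38.p14) had 2984 UMIs in tumor 1 and 1811 in tumor 2. In tumor 1 its level by rising quartile was 59.8 (56.4 to 63.4), 50.6, 48 and 40.7 CPM (37.2 to 44.3). In tumor 2 it was 51.8 (46.4 to 57.6), 48.9, 47.3 and 37.4 (33.9 to 41.1). The lower 3 quartiles of tumor 2 had overlapping intervals, and the top quartile lay under them.

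XRCC2 (ENSG00000196584, chromosome 7:152644776-152676141) was sparse, with 639 and 469 UMIs. Its level was 13.8 (12.2 to 15.6), 11.3, 9.83 and 7.21 CPM (5.81 to 8.84) in tumor 1. Tumor 2 gave 14.1 (11.4 to 17.3), 14, 11.5 and 8.93 (7.28 to 10.8). Neighbouring quartiles overlapped in their intervals, and the bottom and top quartiles did not.

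BRCA1 acts early, in resecting the broken ends, and BRCA2 acts after it, on the resected strand. BRCA1 (ENSG00000012048, chromosome 17:43044295-43170327) had 717 and 508 UMIs. Its level by quartile was 15.9 (14.2 to 17.8), 12.2, 10.4 and 8.54 CPM (7.01 to 10.3) in tumor 1, and 17.2 (14.1 to 20.7), 15.6, 11.1 and 9.72 (8 to 11.7) in tumor 2. Both tumors went down at each step, with the bottom and top quartiles clear of each other. NBR2, which overlaps BRCA1 by 28115 bases, had 195 UMIs in tumor 1 and 180 in tumor 2 (3.32 and 4.53 CPM). The level of NBR2 by quartile was not examined.

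BRCA2 (ENSG00000139618, chromosome 13:32315077-32400268) had 625 and 478 UMIs. In tumor 1 its level was 13 (11.4 to 14.7), 11, 10.1 and 7.29 CPM (5.88 to 8.93). In tumor 2 it was 13.9 (11.2 to 17.1), 15.1, 11.3 and 9.11 (7.44 to 11), so the second quartile was the highest there, within the interval of the first. ZAR1L, which overlaps BRCA2 by 287 bases, had 0 UMIs in both tumors.

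FANCD2 and FANCI form the clamp that is ubiquitinated in the Fanconi anemia pathway, which removes crosslinks between the DNA strands. FANCD2 (ENSG00000144554, chromosome 3:10026437-10101932) gave 824 and 649 UMIs. Its level was 16.4 (14.6 to 18.3), 13.6, 13.3 and 11.8 CPM (10 to 13.9) in tumor 1. In tumor 2 it was 17.6 (14.6 to 21.2), 19.2, 17.2 and 12.3 (10.3 to 14.5), flat over 3 quartiles and lower in the top one. FANCD2OS, which overlaps FANCD2 by 20613 bases, had 0 UMIs in both tumors.

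FANCI (ENSG00000140525, chromosome 15:89243979-89317259) had 3918 and 2898 UMIs. Its level was 80.1 (76.1 to 84.2), 68.2, 60.5 and 51.7 CPM (47.8 to 55.8) in tumor 1. In tumor 2 it was 86.3 (79.3 to 93.7), 82.7, 72.2 and 57.9 (53.6 to 62.5). The top quartile stood clear of every other quartile in both tumors. POLG shares 940 bases with FANCI, and it had 61.8 CPM in the bottom and 51.1 in the top quartile of tumor 1, and 69.6 and 69.2 in tumor 2.

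MSH6 is a subunit of the complex that recognises mismatched bases. MSH6 (ENSG00000116062, chromosome 2:47783145-47810101) had 4700 and 3568 UMIs. In tumor 1 its level was 91.3 (87 to 95.7), 86.2, 71 and 66 CPM (61.6 to 70.6), and in tumor 2 it was 99.8 (92.3 to 108), 100, 85.9 and 79.7 (74.6 to 85). The lower pair of quartiles stood above the upper pair in both tumors, with overlapping intervals within each pair. FBXO11, which shares 3182 bases with MSH6, had 37 and 35.5 CPM in the bottom and top quartile of tumor 1, and 39.1 and 37.4 in tumor 2.

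**Figure D1:**
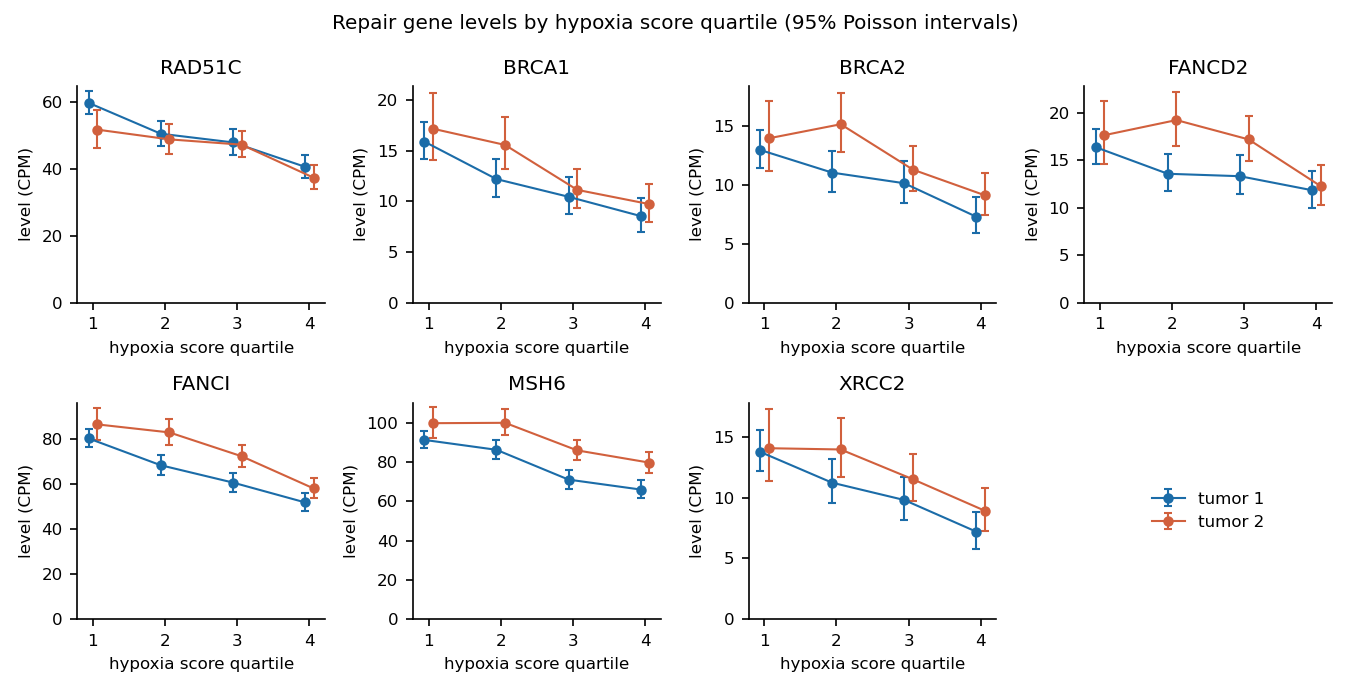
CPM of each repair gene (vertical axis, from 0) in quartiles 1 to 4 of the hypoxia score (horizontal axis) in tumor 1 (blue) and tumor 2 (red), with exact Poisson 95% intervals as bars. In all 14 series the top quartile is the lowest point, and BRCA2, FANCD2 and MSH6 in tumor 2 are highest in the second quartile.

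UMI sums of the top and bottom quartile were then compared with edgeR's quasi-likelihood test with the tumor as a block and Benjamini-Hochberg adjustment over 14124 genes. Of the members, 6 of 7 were lower in high-score tissue at an adjusted p of 0.05, and FANCD2 was not called. Of all genes tested, 7.34% were called lower and 9.32% higher. BRCA1 had a log2 fold change of -0.74 ± 0.15 (SE, n = 2 tumors; 95% interval -1.07 to -0.42; adjusted p = 0.00408), which is 1.67-fold lower. XRCC2 had -0.69 ± 0.17 (adjusted p = 0.0103) and BRCA2 -0.61 ± 0.17 (adjusted p = 0.0201). FANCI had -0.49 ± 0.08 (adjusted p = 0.00109), RAD51C -0.40 ± 0.09 (adjusted p = 0.008) and MSH6 -0.28 ± 0.08 (adjusted p = 0.028). FANCD2, with -0.37 ± 0.14 (95% interval -0.68 to -0.07; adjusted p = 0.0901), had -0.34 in tumor 1 and -0.41 in tumor 2. The tumors gave the same sign for all 7 genes, from -0.34 to -0.80 in tumor 1 and from -0.21 to -0.70 in tumor 2. Of all genes tested, 69.7% had the same sign in both tumors.

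BRCA1, XRCC2 and BRCA2 lay at the larger end and MSH6 at the smaller end, and differences between members were not tested. The calls changed with the block, the tool and the depth. Without the block 2 of 7 were called (BRCA1 and FANCI), where 1.69% of all genes were called lower. DESeq2 called 0 of the 4 members to which it gave an adjusted p, with 4 of 7 at an unadjusted p under 0.05. Of all genes with an adjusted p from DESeq2, 1.32% were called lower. With spots under 1753 UMIs left out and the others thinned to 1753, the low-score zone kept 405 of 710 spots in tumor 2. In tumor 1 it kept 1104390 of 19118394 UMIs. After this thinning 0 members were called, where 2.43% of all genes were called lower. The 6 members that passed the count filter there had BRCA1 at -0.87 ± 0.43, FANCD2 at -0.41 ± 0.44, FANCI at -0.28 ± 0.20, MSH6 at -0.20 ± 0.18, BRCA2 at -0.11 ± 0.44 and RAD51C at -0.09 ± 0.23. Between the top and bottom deciles of the score MSH6 was at -0.09 ± 0.13 (edgeR, adjusted p = 0.68). The tumors differed there, from 89.9 CPM in the bottom to 66.6 in the top decile of tumor 1, but from 81.7 to 83 in tumor 2.

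Spots of the zones differed in more than the score. The low-UMI area made up 6.5% of low-score and 20.7% of high-score spots in tumor 1, but 51.3% and 11.7% in tumor 2, where it gave 7.19% and 2.15% of the UMIs. With that area left out 6 of 7 members were lower by edgeR, where 4.79% of all genes were. Markers of other cell types together made up on average 0.180% and 0.190% of a spot's UMIs in the low-score and high-score zones of tumor 1, and 0.391% and 0.203% in tumor 2. Fibroblast markers went from 962 to 1172 CPM in tumor 1 and from 1934 to 895 in tumor 2, and skeletal muscle markers from 12.3 to 13.9 and from 748 to 24.2. Red blood cell markers went from 44.9 to 70.6 and from 65.6 to 42.5. Macrophage markers summed to 193 CPM in the low-score zone of tumor 1, with a higher sum in its high-score zone, and to 194 and 217 in tumor 2. CD68, a lysosomal membrane protein, gave most of these sums. Of 8 macrophage markers tested 4 were lower by edgeR (AIF1, C1QB, TYROBP and FCER1G) and 1 was higher (CD68, 0.70 ± 0.08) (median over the 8 genes -0.54 for tumor 1, -1.48 for tumor 2). Of the fibroblast markers 3 of 10 tested were lower, of the skeletal muscle markers 3 of 3, and of 5 endothelial, 2 red blood cell, 2 skin epithelial and 1 adipocyte marker none was called in either direction. With the spots richest in markers of other cells left out 6 of 7 members were lower, where 10.5% of all genes were. The part of other cell types in the repair gene values was not tested beyond that.

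**Figure D2:**
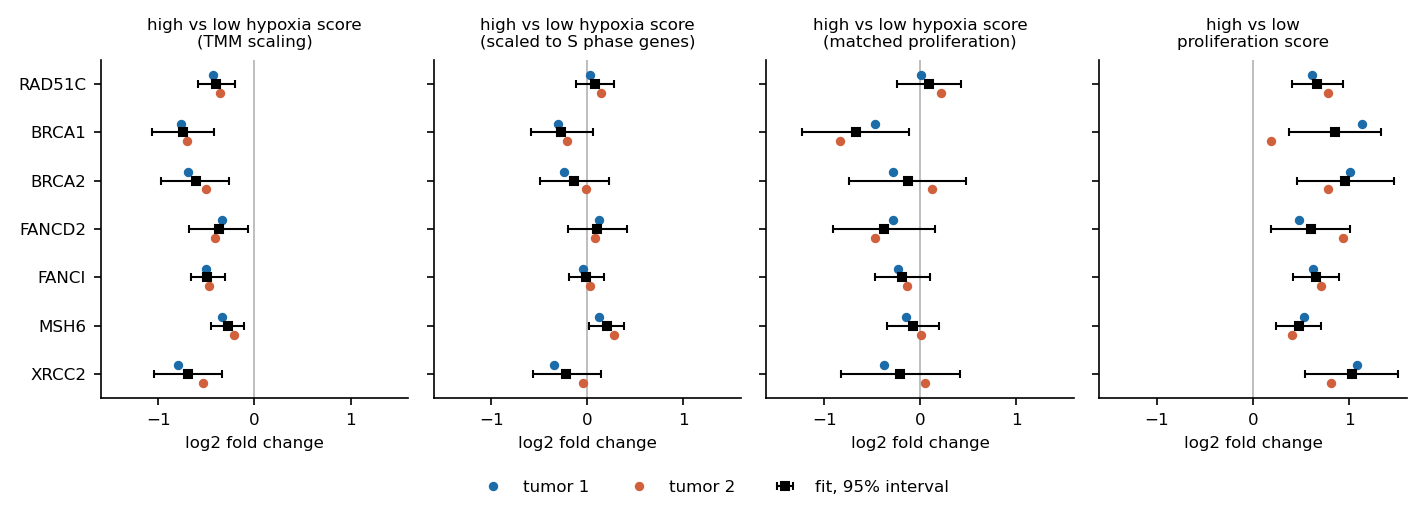
Log2 fold changes (horizontal axis) of the 7 repair genes between high-score and low-score tissue with TMM scaling, with scaling to S phase genes and at matched proliferation, and between high and low proliferation score. Squares with bars are the edgeR value and its 95% interval, and points are tumor 1 (blue) and tumor 2 (red). With TMM scaling all intervals lie under 0, scaled to S phase genes only that of MSH6 (0.02 to 0.38) leaves out 0, and along the proliferation score all lie above 0.

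The proliferation genes themselves were lower in high-score tissue. Of 40 S phase genes, 36 were lower and 0 higher (median log2 fold change -0.54), and of 48 G2 and M phase genes 24 were lower and 0 higher (median -0.31), against a median of 0.00 over all genes. The 7 repair genes had a median of -0.49. Among the proliferation genes TYMS, which makes thymidylate for DNA synthesis, had -0.53 ± 0.08 (adjusted p = 0.000295), the replication clamp PCNA had -0.47 ± 0.08 (adjusted p = 0.000822), and the proliferation marker MKI67 had -0.49 ± 0.08 (adjusted p = 0.000834). E2F8, an S phase repressor, had -1.09 ± 0.21 (adjusted p = 0.00225) and the replisome subunit GINS3 had -0.89 ± 0.18 (adjusted p = 0.00341). KIF23 and TUBB4B, of the mitotic spindle, both stood at -0.52 (adjusted p = 0.000846 and 0.000502).

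Summed over the 7 members, the level went from 290 to 193 CPM between the bottom and top quartile of tumor 1, and from 301 to 215 in tumor 2. S phase genes went from 3145 to 2097 and from 3412 to 2237, and G2 and M phase genes from 4712 to 3713 and from 4989 to 3716. The bottom quartile thus held 1.5 times the top quartile's repair gene level in tumor 1 and 1.4 times in tumor 2, with 1.5 and 1.53 times for S phase genes and 1.27 and 1.34 times for G2 and M phase genes. Per 100 S phase UMIs, the repair genes had 9.23, 9.22, 9.1 and 9.22 UMIs by rising quartile in tumor 1, a ratio that stayed flat along the score. In tumor 2 the ratio was 8.81 (exact 95% interval 8.41 to 9.23), 8.74, 9.15 and 9.61 (9.22 to 10). Per 100 G2 and M phase UMIs it was 6.16 in the bottom and 5.2 in the top quartile of tumor 1, and 6.03 and 5.79 in tumor 2.

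By decile the sum went from 295 to 180 CPM in tumor 1, lower at every step. In tumor 2 it was 280 in the lowest decile, where 72.2% of spots lay in the low-UMI area, 308 in the next, and 205 in the highest. Per 100 S phase UMIs, the deciles ranged from 8.6 to 9.64 repair gene UMIs in tumor 1 and from 8.59 to 9.81 in tumor 2.

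**Figure D3:**
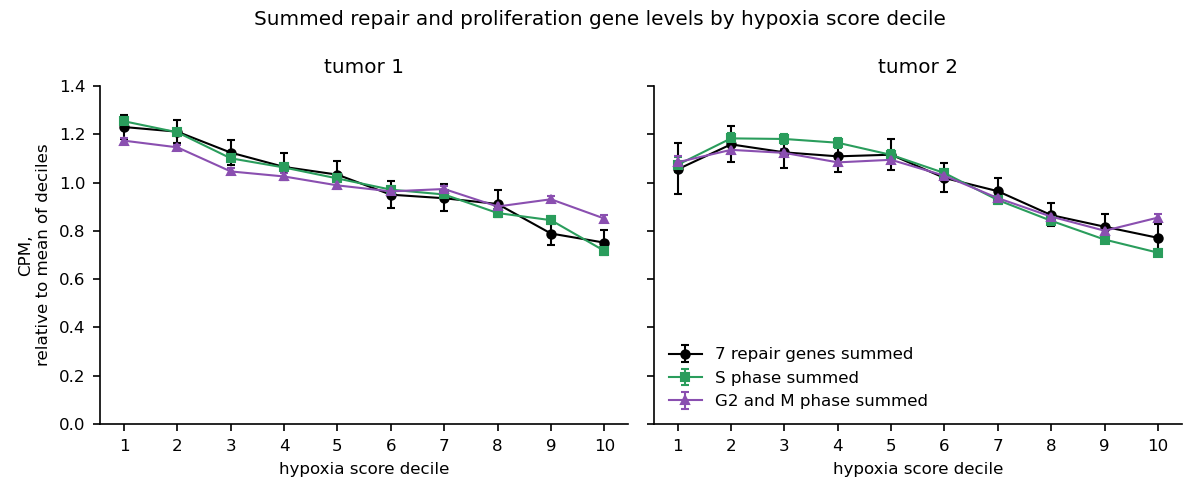
CPM, relative to the mean over deciles (vertical axis, from 0), of the 7 repair genes summed (black), 40 S phase genes (green) and 48 G2 and M phase genes (purple) by decile of the hypoxia score (horizontal axis), with exact Poisson 95% intervals. The repair genes run from 295 to 180 CPM in tumor 1 and from 280 to 205 in tumor 2, and all 3 sums are lower in the top deciles.

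To ask whether a repair gene changed more or less than S phase genes as a whole, the library size was replaced by the summed UMIs of the S phase list. On this scale the median over all genes was 0.48, and the 7 repair genes had a median of -0.01. None passed (0 of 7 by edgeR, 1 of 7 at an unadjusted p under 0.05, 0 by DESeq2), where 64.9% of all genes were called, 64.3% higher and 0.602% lower. FANCI stood at -0.01 ± 0.09 (95% interval -0.19 to 0.17) and RAD51C at 0.08 ± 0.09 (-0.12 to 0.28). BRCA1 had -0.27 ± 0.16 (-0.59 to 0.06), XRCC2 -0.22 ± 0.17 (-0.57 to 0.14) and BRCA2 -0.14 ± 0.17 (-0.49 to 0.22). MSH6 had 0.20 ± 0.09 (0.02 to 0.38; adjusted p = 0.0505), with 0.12 in tumor 1 and 0.28 in tumor 2, and FANCD2 had 0.10 ± 0.15 (-0.20 to 0.41). These intervals leave room for differences from the S phase list of up to 0.41 upward and 0.59 downward on the log2 scale, so equal change is not shown. With the G2 and M phase list as the scale, BRCA1 was called lower by edgeR (-0.48 ± 0.17, adjusted p = 0.0229). On that scale the median over all genes was 0.26, with 1.61% of all genes called lower and 33.4% higher.

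Other routes were read on the same S phase scale. Of 21 nucleotide excision repair genes 18 were called higher there, of 19 base excision repair genes 11, of 17 end joining genes 10, of 7 other mismatch repair genes 4, of 34 other homologous recombination genes 7 and of 18 other Fanconi anemia pathway genes 6, with 0 lower in any of these lists. Set against 64.3% of all genes, the shares of the recombination and Fanconi lists were smaller and that of nucleotide excision repair larger, a description with no test of the difference.

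Spots of the high-score and low-score quartiles were also drawn to hold the same spread of proliferation gene share, which left 162 spots a side in tumor 1 and 343 in tumor 2. In these matched zones 0 of 7 members were called by edgeR (1 of 7 at an unadjusted p under 0.05, 0 by DESeq2, which gave 3 of them an adjusted p), with 1.09% of all genes called. BRCA1 had a log2 fold change of -0.67 ± 0.26 (95% interval -1.23 to -0.12; adjusted p = 0.376), with -0.47 in tumor 1 and -0.84 in tumor 2. It was -0.43 ± 0.25 with another draw of spots and -0.18 ± 0.28 without the low-UMI area. The others ranged from -0.38 ± 0.25 for FANCD2 to 0.09 ± 0.15 for RAD51C. The matched low-score spots of tumor 2 were shallow, with a median of 1310 UMIs against 19009 on the high-score side, and 79.9% of them lay in the low-UMI area. With another draw of spots, 43 genes were called in place of 132.

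A plain split gave the levels behind this. Among spots above the tumor's median proliferation score, the members summed to 291 CPM (284 to 299) in the low-score and 216 (201 to 232) in the high-score zone of tumor 1, and to 309 (295 to 323) and 258 (245 to 272) in tumor 2. Below that median they summed to 248 (209 to 294) and 184 (175 to 193) in tumor 1, and to 225 (190 to 266) and 178 (167 to 188) in tumor 2. Within each side of the proliferation median the members' sum was lower in the high-score zone. S phase genes were lower there too, from 3170 to 2557 above the median in tumor 1 and from 3510 to 2667 in tumor 2. Below the median, single members went the other way. RAD51C in tumor 2 had 20.8 CPM in the low-score and 31.4 in the high-score zone, and FANCD2 in tumor 1 had 10.9 and 11.7. The low-score spots under the median had few UMIs, with 69.5% and 93.8% of them in the low-UMI area.

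Ordered by the proliferation score itself, without its own 88 genes in the test, all members rose. In the top against the bottom quartile 7 of 7 were higher by edgeR at an adjusted p of 0.05, where 6.53% of all genes were. XRCC2 had the largest value, 1.03 ± 0.24 (adjusted p = 0.00187), followed by BRCA2 with 0.96 ± 0.25 (adjusted p = 0.00507) and BRCA1 with 0.85 ± 0.24 (adjusted p = 0.00942). BRCA1 differed between the tumors, from 6.84 to 15.2 CPM after TMM scaling in tumor 1 (log2 1.13) but from 12 to 13.8 in tumor 2 (0.19). RAD51C had 0.66 ± 0.13 (adjusted p = 0.000278), FANCI 0.65 ± 0.12 (adjusted p = 9.96e-05), FANCD2 0.60 ± 0.20 (adjusted p = 0.0375) and MSH6 0.48 ± 0.12 (adjusted p = 0.00271). The bottom quartile of this score was largely the low-UMI area (66.2% and 93.1% of its spots, against 0.0% in the top quartile), and without that area 6 of 7 were higher, where 4.86% of all genes were, with FANCD2 at 0.68 ± 0.29 (adjusted p = 0.113). Without the block 4 of 7 passed, where 2.51% of all genes were called higher. DESeq2 called only FANCI, with 5 of 7 at an unadjusted p under 0.05. Of all genes with an adjusted p from DESeq2, 1.66% were called higher.

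Across the spots of tumor 1 the hypoxia and proliferation scores had a Pearson r of -0.53, and across those of tumor 2 it was 0.01. These are descriptions over spots that share a section. S phase genes were lower in the top than in the bottom quartile of the hypoxia score in tumor 2 too, as given above.

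Genes of other repair lists were read in the same comparison of high-score with low-score tissue, where 7.34% of all genes were called lower and 9.32% higher and the median was 0.00. The lists were not tested as sets. Of 34 other homologous recombination genes 10 were lower and 0 higher (median -0.38). The helicase BLM had -0.66 ± 0.12 (edgeR, adjusted p = 0.00199). Others among the 10 were XRCC3, RAD54L, RBBP8, TOP3A, RMI1, RMI2, MCM8 and FIGNL1. BLM, TOP3A, RMI1 and RMI2 are the members of the complex that dissolves joined chromatids after strand exchange.

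Of 18 other Fanconi anemia pathway genes 6 were lower and 0 higher (median -0.31): FANCA, FANCB, FANCG, UBE2T, RFWD3 and USP1. UBE2T and USP1 put on and take off the ubiquitin of FANCD2 and FANCI, and RFWD3, a ubiquitin ligase, had -0.68 ± 0.11 (adjusted p = 0.000578). The translocase FANCM had -0.55 ± 0.24 and was not called (adjusted p = 0.131).

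In mismatch repair 3 of 7 other genes were lower and 0 higher (median -0.02). The exonuclease EXO1, which cuts back the strand that carries the wrong base, had -0.57 ± 0.11 (edgeR, adjusted p = 0.0032).

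The damage checkpoint list had 6 lower and 1 higher of 18 (median -0.22). ATRIP, the partner of the kinase ATR, had -0.73 ± 0.15 (adjusted p = 0.00467) and CLSPN, which passes the ATR signal to CHEK1, had -0.71 ± 0.10 (adjusted p = 0.000193). WEE1, the kinase that holds back mitosis, was the gene that was higher, at 0.43 ± 0.11 (adjusted p = 0.0112). Of 17 regulators of the E2F pathway 5 were lower and 0 higher, among them LIN54, the DNA-binding subunit of the DREAM complex, with -0.71 ± 0.16 (adjusted p = 0.00627). E2F2 had -0.96 ± 0.33 (adjusted p = 0.0553).

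Of the routes that do not copy a sister chromatid, end joining had 1 gene lower (PAXX, -0.29 ± 0.09) and 1 higher (POLM, 0.33 ± 0.10) of 17, with a median of -0.10. LIG4, the ligase of that route, had -0.56 ± 0.23 (adjusted p = 0.11), with -1.06 in tumor 1 and -0.03 in tumor 2, and POLQ had -0.48 ± 0.24 (adjusted p = 0.203). Base excision repair had 4 lower of 19 (median -0.14), which were UNG with -0.51 ± 0.09 (adjusted p = 0.000969), NEIL3 with -0.55 ± 0.18 (adjusted p = 0.0481), PARP1 and TDP1. Nucleotide excision repair, which removes bulky lesions, had 0 lower and 1 higher of 21 (GTF2H5, 0.29 ± 0.09; median 0.03). ERCC4 had -0.55 ± 0.21 (adjusted p = 0.0845) and ERCC6 had 0.40 ± 0.17 (adjusted p = 0.122). The differences between lists were not tested.

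**Figure D4:**
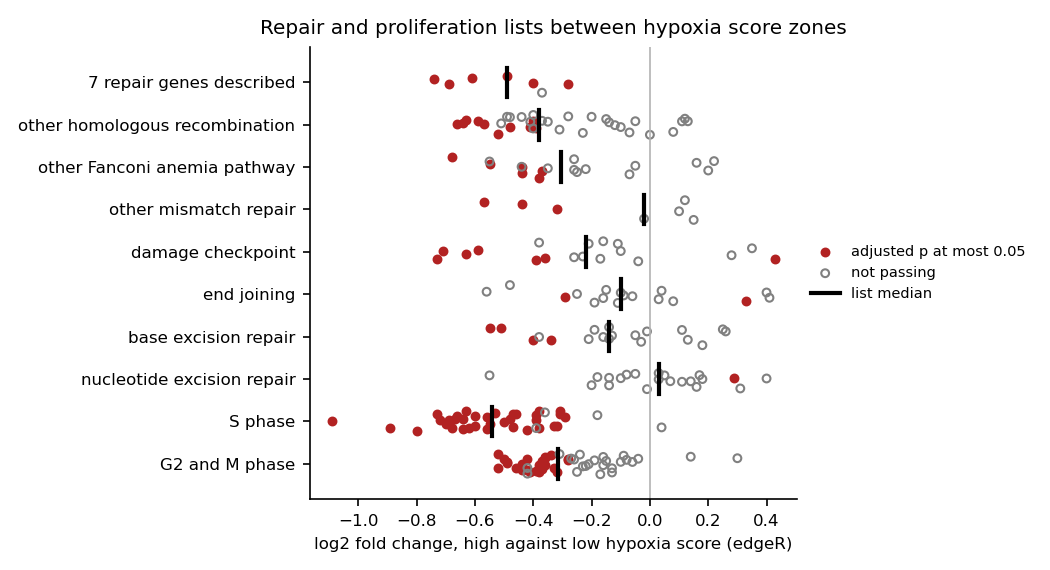
Log2 fold changes of single genes (points, horizontal axis) between high-score and low-score tissue, by list (vertical axis), with filled points for an edgeR adjusted p of at most 0.05, open points for the rest and a bar at each list's median. The 7 repair genes (median -0.49) lie between the S phase list (-0.54) and the other homologous recombination genes (-0.38), while nucleotide excision repair lies around 0 (0.03).

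Depth inside the tumor was examined without reference to the score. In the inner against the outer tertile of steps to the tissue border, 0 of 7 members were called by edgeR, 0 at an unadjusted p under 0.05 and 0 by DESeq2, with 6.99% of all genes called (4.09% lower and 2.9% higher). All values were negative, from -0.30 ± 0.15 for XRCC2 (95% interval -0.61 to 0.01) to -0.04 ± 0.09 for RAD51C (-0.22 to 0.13). The tumors differed, the median over the members being 0.00 in tumor 1 and -0.30 in tumor 2. The low-UMI area made up 44.0% of inner spots in tumor 1 and 58.6% in tumor 2, and a smaller share of outer spots in both (7.7% in tumor 1). Of the 40 S phase genes 7 were lower inside, and their median also differed between tumors, at -0.05 and -0.37.

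The study's question concerns tissue outside the hypoxic area, so low-score spots within 3 steps of the top quartile were set against those farther off, matched on the score (483 spots a side in tumor 1 and 295 in tumor 2). None of the members was called (0 of 7 by edgeR, 0 at an unadjusted p under 0.05, 0 by DESeq2), where 0.134% of all genes were (0.119% lower and 0.0149% higher). The values ran from 0.00 ± 0.15 for BRCA2 (95% interval -0.30 to 0.30), with 0.23 in tumor 1 and -0.48 in tumor 2, to 0.29 ± 0.16 for XRCC2 (-0.02 to 0.61). For FANCI, at 0.05 ± 0.07, the interval was -0.09 to 0.20, and for MSH6, at 0.00 ± 0.07, it was -0.14 to 0.14. The low-UMI area made up 17.6% of near and 24.4% of far spots in tumor 1, and 45.1% and 36.3% in tumor 2.

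The low-UMI area itself held less repair gene RNA, in CPM, than the rest of the section. The members summed to 200 (185 to 216) against 248 (244 to 252) in tumor 1, and to 212 (189 to 236) against 263 (258 to 268) in tumor 2. RAD51C stood at 42.6 (35.7 to 50.5) against 51.3 in tumor 1 and at 25.9 (18.4 to 35.4) against 46.4 in tumor 2. MSH6 did not follow in both tumors, with 66.2 (57.5 to 75.8) against 80.9 in tumor 1 but 92.2 (77.5 to 109) against 89.7 in tumor 2. Nor did XRCC2, with 11.8 (8.29 to 16.2) against 10.8 in tumor 1 and 10.6 (6.07 to 17.2) against 11.8 in tumor 2. S phase genes were lower in the area too, at 2252 against 2694 CPM in tumor 1 and 2239 against 2904 in tumor 2.

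The genes with the pattern most like the members were sought over deciles of the score in both tumors (20 sums, log2 CPM centred within each tumor), among 6738 genes with a mean of at least 20 CPM. With the mean of the members, Pearson r was 0.99 for HNRNPAB and 0.98 for H2AFZ, MCM4, FEN1 and MCM7, where the median over all these genes was 0.45. MCM4, FEN1 and MCM7 are of the S phase list. By member, the closest genes were PPP1R10 and SNHG9 for RAD51C (0.93 each), SUMO3 and TRA2B for XRCC2 (0.95 and 0.94), UBB and HSPA8 for BRCA1 (0.96 and 0.95), and CLUH and NUP107 for BRCA2 (0.89 each). For FANCD2 they were MED27 and ELOVL5 (0.89 each), for FANCI ATAD3B and PET100 (0.97 and 0.96), and for MSH6 NCL and UBE3C (0.92 each). Between members r ran from 0.61 for FANCD2 with XRCC2 to 0.88 for BRCA1 with FANCI. With the mean of the S phase list it ran from 0.79 for BRCA2 to 0.93 for FANCI, and with that of the G2 and M phase list from 0.74 for BRCA2 to 0.88 for FANCI. Only MSH6 had the higher r with the G2 and M phase mean (0.85, against 0.82 with the S phase mean). These values describe 20 sums that share their spots, depth and ordering by the score.

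In the sections the members' sum over neighbouring spots was 236 CPM at the median spot of tumor 1 and 250 at that of tumor 2. The map of tumor 2 was patchy in its interior, where the UMIs per spot were low, and both low and high values there rest on few UMIs.

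**Figure D5:**
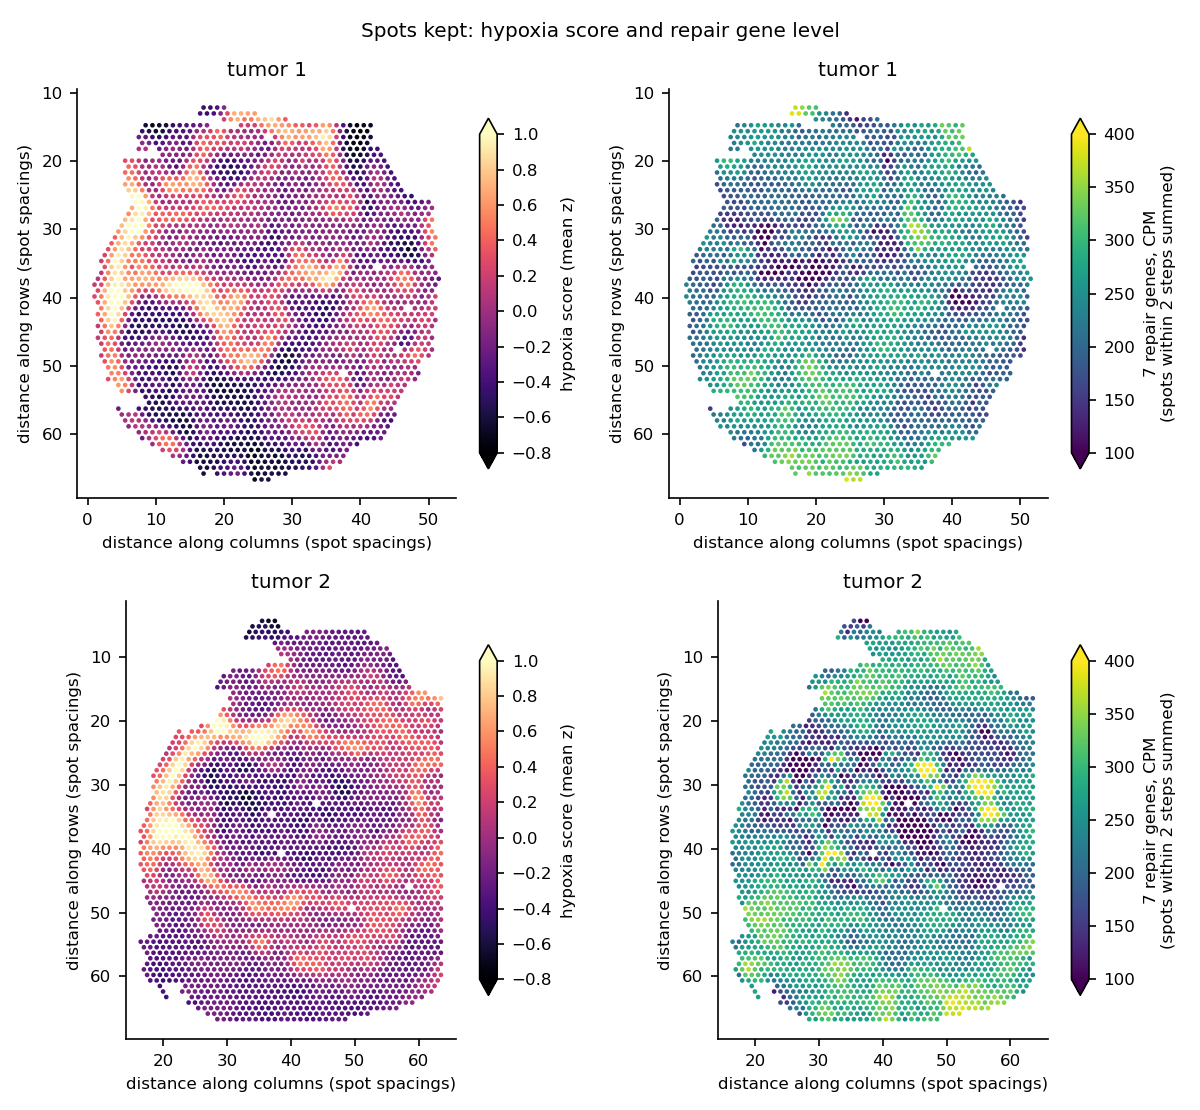
Spots kept in tumor 1 (top) and tumor 2 (bottom), with distance in spot spacings on both axes, coloured by hypoxia score (left) and by CPM of the 7 repair genes over spots within 2 steps (right). The repair gene level, 236 at the median spot of tumor 1 and 250 at that of tumor 2, is lower over much of the high-score bands, and scatters most in the low-UMI interior of tumor 2. Tumor 1 also has low values outside these bands, at middling scores.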

How the data were processed

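UMI counts per gene and spot were deposited by the authors, which name Space Ranger 1.3.0 as their source per the file headers. The build was hg38 per the submitters' processing notes, and whether strand was used is not given in the sources used here. Tissue spots under 500 UMIs were left out, and zones were summed per tumor (4 sums), since spots are not replicates. Sums were fitted in edgeR 4.0.16 (TMM, filterByExpr, estimateDisp, glmQLFit, glmQLFTest; tumor as a block, 1 residual degree of freedom), with R 4.3.3, DESeq2 1.42.0 and Python 3.11.15. Score genes were not tested. For single tumors the log2 values had a prior count of 2, and the SE is the log2 fold change divided by the root of F. p-values rest on how far the difference between zones varied between these 2 tumors, with that spread moderated over all genes. With more prior than residual degrees of freedom in each comparison, the spread came mostly from all genes and little from the gene tested. The prior degrees of freedom were 14.2 for the hypoxia score zones and 39.7 for the proliferation score. For near and far spots they were infinite, so the p-values there rest on the spread pooled over genes alone. The block pairs zones of the same section. Named genes were the members, the 2 genes per list farthest from 0 on the log2 scale, MKI67, PCNA and TYMS, and the genes of the most similar pattern. Other genes are named only to list those called, and some results for single genes of the lists are not reported here. The members, lists and zones were chosen with earlier results of these data known. HROB and H2AX are C17orf53 and H2AFX in the files. The scripts were tested on simulated data.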

Additional observations from a re-analysis of the deposited data

How the results depend on the processing

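Repair genes called lower between hypoxia score zones (6) numbered 2 without the replicate block, 0 by DESeq2 and 0 with thinned spots; all genes called (2353) numbered 687, 436 and 640. With library size alone 2349 were lower and 803 higher, against 1037 and 1316, since the median of all genes moved to -0.12, and FANCD2 was called (-0.49, edgeR adjusted p = 0.0216). On the S phase scale 9173 genes were called, 4983 by DESeq2 and 4942 on the G2 and M phase scale, where 1 repair gene was called and RAD51C (-0.14), FANCD2 (-0.11) and MSH6 (-0.02) changed sign. On the S phase scale FANCI ran from -0.05 to 0.03 when either tumor was left out and was 0.02 without the low-UMI area. Over its 7 settings, the G2 and M phase scale among them, FANCI ran from -0.22 to 0.03. At matched proliferation 132 genes were called, 350 without the count filter, 36 without the block, 29 by DESeq2, 33 when matched on S phase share and 43 in another draw. With either tumor left out BRCA2 ran from -0.28 to 0.12, MSH6 from -0.15 to 0.01 and XRCC2 from -0.38 to 0.05, and RAD51C was -0.10 without the low-UMI area. Along the proliferation score 7 members and 2213 genes were called, 4 and 999 without the block, 1 and 639 by DESeq2. Between inner and outer tissue 1019 genes were called, 34 without the block, 97 by DESeq2 and 564 without the low-UMI area. With either tumor left out RAD51C ran from -0.19 to 0.08, BRCA1 from -0.33 to 0.00, FANCI from -0.34 to 0.04 and MSH6 from -0.23 to 0.09. Between near and far spots 18 genes were called, 0 without the block and 0 by DESeq2. With either tumor left out BRCA2 ran from -0.48 to 0.23, FANCI from -0.07 to 0.12 and MSH6 from -0.03 to 0.07. BRCA2 was -0.06 without the block and -0.10 by DESeq2, and MSH6 was -0.07 without the low-UMI area. The causes were not tested.

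Over 13 to 15 settings a gene, the 7 genes stayed negative between hypoxia score zones, BRCA1 from -1.16 to -0.61 and MSH6 from -0.40 to -0.09. The -0.09 of MSH6 was between deciles, where its CPM was not lower in tumor 2. Leaving out a tumor gives a value with no test. A second hypoxia score list was not run, since 1 list was at hand. With 2 tumors and sparse genes, small differences from the S phase list were not detectable at this depth.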
